A study of Mus musculus with 24 samples.

Results

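The cell cycle and DNA replication genes described here are 42 genes picked by name for their roles in dividing cells, out of 56941 genes in the expression tables, and all 42 passed the filter on low counts. Of these, 19 form an S-phase set, named for the phase when DNA is copied. The other 23 form a mitotic set, named for mitosis, when the copied chromosomes are separated. Some members act in other phases as well, and the 2 sets are reported apart. RNA was sequenced from 24 tissues of C2C12, an established mouse myoblast line. Every group, controls included, carried ChR2::tdTomato, a light-gated cation channel fused to a red fluorescent protein, which lets blue light trigger contraction; the promoter that drives it is not given in the sources used here, and all tissues come from this 1 engineered line. Tissues were differentiated as sheets on grooved fibrin hydrogels in medium with horse serum and IGF-1. They were left unstimulated (control, n = 6) or exercised with light for 30 min per day at 1 Hz, 4 Hz or 10 Hz (n = 6 each) over about 2 weeks. The replicates were described as separate biological samples of 1 experiment, so the spread and p-values cover variation between tissues and not between cell lines or experiments.

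Myoblasts leave the cell cycle when they fuse into multinucleated myotubes, and a fraction of the cells in such cultures stays mononucleated and undifferentiated. In dividing cells, E2F factors switch on the genes of DNA replication as cells enter S phase. The genes of mitosis are switched on later, through promoters that carry CCAAT boxes, bound by NF-Y, and cell cycle genes homology regions (CHR), bound by complexes built on MuvB. In resting cells the DREAM complex, which contains MuvB, E2F4 and pocket proteins, represses both sets.

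The promoters of 4 members are printed to show these elements where they lie. These are the members with the largest absolute log2 fold changes among those called in any comparison, except Ccna2, for which no promoter was listed. The sequences are from RefSeq (build GRCm38.p6) and run from 250 bases before the transcription start to the base before it, 5′ to 3′ on the strand of the gene. Hmmr lies on the minus strand at chr11:40733438-40733687, Mki67 on the minus strand at chr7:135716380-135716629, Ube2c on the plus strand at chr2:164769679-164769928 and Cdc6 on the plus strand at chr11:98907901-98908150. Capitals mark matches, on either strand, to a CHR (TTTGAA or TTTAAA), to the CCAAT box as its name spells it, or to an E2F site (TTGGCGC or TTCCCGC or TTGCCGC or TTCGCGC).
Hmmr: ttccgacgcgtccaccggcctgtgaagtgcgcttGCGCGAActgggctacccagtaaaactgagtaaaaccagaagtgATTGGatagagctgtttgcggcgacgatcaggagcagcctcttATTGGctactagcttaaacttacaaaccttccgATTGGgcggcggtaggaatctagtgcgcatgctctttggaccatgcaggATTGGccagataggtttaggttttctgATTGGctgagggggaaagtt
Mki67: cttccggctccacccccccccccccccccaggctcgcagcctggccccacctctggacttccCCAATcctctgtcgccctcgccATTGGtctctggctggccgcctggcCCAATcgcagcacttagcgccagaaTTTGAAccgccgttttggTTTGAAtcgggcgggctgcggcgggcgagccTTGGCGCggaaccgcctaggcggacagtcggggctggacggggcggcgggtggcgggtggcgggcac
Ube2c: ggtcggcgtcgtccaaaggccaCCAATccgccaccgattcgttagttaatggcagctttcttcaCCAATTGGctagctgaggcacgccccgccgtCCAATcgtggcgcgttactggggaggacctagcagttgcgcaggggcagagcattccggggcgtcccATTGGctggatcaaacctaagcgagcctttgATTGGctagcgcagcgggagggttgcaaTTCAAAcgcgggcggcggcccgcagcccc
Cdc6: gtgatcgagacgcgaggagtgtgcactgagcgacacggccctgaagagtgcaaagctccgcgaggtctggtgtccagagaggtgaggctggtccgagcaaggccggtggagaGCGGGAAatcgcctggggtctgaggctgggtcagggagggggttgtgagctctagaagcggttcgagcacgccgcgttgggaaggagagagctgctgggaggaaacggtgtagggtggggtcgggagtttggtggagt

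The 3 mitotic promoters carried 3 to 6 CCAAT boxes each. In Ube2c a pair of them, on opposite strands, overlapped. Hmmr and Mki67 had an E2F match each. Mki67 had 2 CHR matches and Ube2c had 1, while the CHR match of Hmmr lay 8 bases past the start and so outside the stretch shown. Cdc6 had 1 E2F match, 138 bases before the start, and no match to the other elements. Over the 300-base windows that end 50 bases past the start, a CHR match was present in 90% of 20 windows of 19 mitotic members, in 38.9% of 18 windows of 16 S-phase members and in 27.6% of all 32851 windows. CCAAT boxes were present in 90%, 66.7% and 37.4%. E2F matches were present in 20%, 61.1% and 9.57%. No promoter was listed for 7 members (Kif20a, Gins2, Ccne2, Mcm4, Ccna2, Aurkb and Tpx2). A match is a run of letters and is not evidence of binding.

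The tissues expressed all 12 markers of differentiated muscle, with a summed level between 10813 and 13776 TPM in control, where TPM is the share of all transcripts after scaling for transcript length. Library totals lay between 4.09 M and 15.2 M estimated counts, with a median of 7.48 M. Small RNAs without a poly(A) tail took 99.1 to 170 CPM, the share of a library's counts, in control, 15 to 70.2 CPM at 1 Hz, 18.3 to 51.1 CPM at 4 Hz and 38.4 to 273 CPM at 10 Hz, so that control did not overlap with 1 Hz or 4 Hz. The labels say that low-input RNA was ribodepleted in place of poly(A) selection and do not name those libraries. Replicates 3 and 6 at 4 Hz stood apart in mitotic members, and replicates 1, 2 and 3 at 10 Hz in members of both sets, as described further on.

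Most members were expressed at low levels, and the mitotic members at lower levels than the S-phase members. The mean TPM of a member over the 24 libraries, which can be compared between genes, had a median of 6.86 over the S-phase members, 1.62 over the mitotic members and 16.1 over all 13318 genes tested. Of the S-phase members 15 of 19 lay below the median of all genes, and of the mitotic members 22 of 23. Pcna, the sliding clamp of DNA polymerases, was at 143 TPM, and Rrm2 and Rrm1, the small and large subunits of ribonucleotide reductase, were at 112 and 40.9 TPM. Pcna and Rrm2 together made up 62.0% of the summed TPM of the S-phase members. The replicative helicase subunits Mcm7 and Mcm6 followed at 19.7 and 14.7 TPM, then Cdt1, a helicase loading factor, at 10.5 TPM. Among mitotic members Cdk1, the kinase that drives entry into mitosis, was at 22.5 TPM and made up 30.1% of the summed TPM. Next came Ube2c, the ubiquitin-conjugating enzyme of the anaphase-promoting complex, at 8.03 TPM, and Prc1, a microtubule bundler of the central spindle, at 6.58 TPM. Ccnb1 (cyclin B1) and Tpx2, a spindle assembly factor, were both at 4.00 TPM, and Cdc20, an activator of the anaphase-promoting complex, was at 3.96 TPM. Mki67, the antigen used to stain dividing cells, was lowest of all members at 0.196 TPM.

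**Figure D1:**
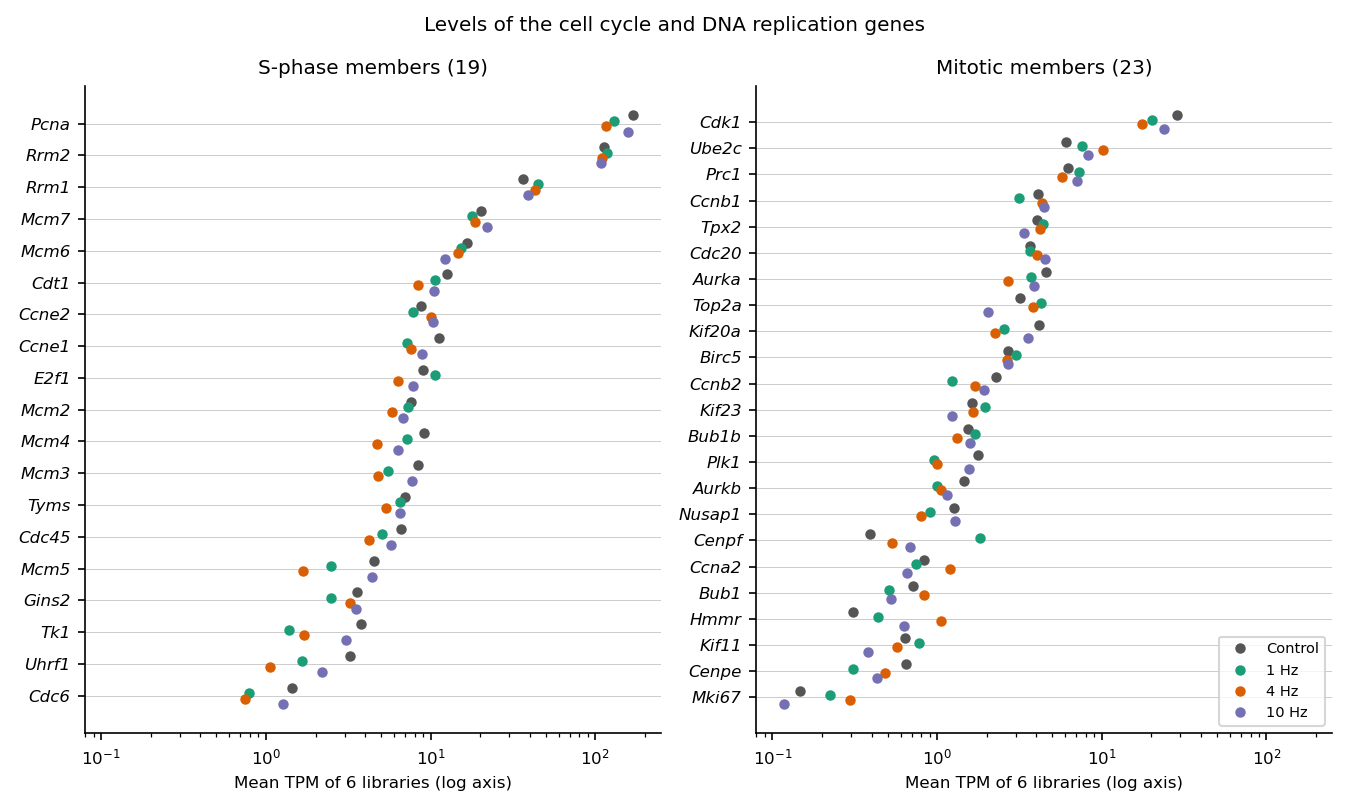
Mean TPM of each of the 19 S-phase and 23 mitotic members in control, 1 Hz, 4 Hz and 10 Hz tissues, on a log axis; each point is the mean of 6 libraries. The points of Pcna and Rrm2 lie near or above 100 TPM in every condition, and most mitotic members lie under 5 TPM.

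Low levels limited precision. The mean count per library ran from 13.5 to 1268 over the S-phase members and from 9.42 to 98.8 over the mitotic members, and it was under 20 for 3 S-phase and 12 mitotic members. Ccna2 and Cenpe had no count in 1 library each.

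At 1 Hz, 6 of the 19 S-phase members and 1 of the 23 mitotic members fell against control, and 1 mitotic member rose. A gene was called where the edgeR adjusted p was under 0.05 and the absolute log2 fold change above 0.5. The S-phase members that fell were 31.6% of their set and none rose, where 8.99% of all genes tested fell and 9.34% rose. The 6 were Cdc6, Tk1, Mcm5, Uhrf1, Ccne1 and Mcm3. The mitotic members that rose and fell were 4.35% of theirs in each direction. The median log2 fold change was −0.33 over the S-phase members, 0.10 over the mitotic members and −0.01 over all genes tested. In bulk tissue, fewer dividing cells and less RNA per cell cannot be told apart.

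Cdc6, which loads the helicase at replication origins, had CPM values from 2.01 to 3.48 with a median of 2.39 in control, and from 0.749 to 1.83 with a median of 1.28 at 1 Hz. Every 1 Hz library was below every control library, as for 5.86% of all genes tested, and the log2 fold change was −1.02 (SE 0.30, adjusted p = 0.00904), a 2.03-fold lower level. In TPM the ranges of Cdc6 overlapped, at 1.08 to 2.33 in control, 0.402 to 2.01 at 1 Hz and 0.255 to 1.96 at 4 Hz, and limma on log2(TPM + 1), where the mean TPM was 1 or more, did not call it at 1 Hz (−0.48, adjusted p = 0.126) or 4 Hz (−0.53, adjusted p = 0.08). Tk1, thymidine kinase of the nucleotide salvage pathway, ranged from 1.67 to 2.88 CPM (median 2.17) in control and from 0.565 to 1.93 CPM (median 1.15) at 1 Hz. The ranges overlapped, and the log2 fold change was −1.0 (SE 0.28, adjusted p = 0.00777).

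The helicase subunit Mcm5 ranged from 5.01 to 8.58 CPM (median 6.6) in control and from 2.71 to 5.08 CPM (median 3.84) at 1 Hz, with 5 of 6 libraries below every control (log2 fold change −0.80, SE 0.28, adjusted p = 0.0305). Uhrf1, which brings the maintenance DNA methyltransferase to replicated DNA, ranged from 3.72 to 7.95 CPM (median 5.76) in control and from 2.47 to 4.24 CPM (median 3.57) at 1 Hz. It fell by 0.69 on the log2 scale (SE 0.25, adjusted p = 0.035), with overlapping ranges. The call of Uhrf1 was lost without control replicate 2, 3 or 6 or 1 Hz replicate 2, 4, 5 or 6, with log2 fold changes between −0.70 and −0.57. That of Mcm5 was lost without control replicate 5 or 6 or 1 Hz replicate 2, 3 or 5, with values between −0.77 and −0.71. Ccne1 (cyclin E1, which activates Cdk2 at the start of S phase) ranged from 10.5 to 18 CPM in control and from 7.05 to 11.3 CPM at 1 Hz, and the helicase subunit Mcm3 from 13.0 to 19.2 and from 9.66 to 14.6 CPM. Both ranges overlapped, and the log2 fold changes were −0.58 (SE 0.17) and −0.56 (SE 0.16). Ccne1 fell under the fold threshold without control replicate 1 (−0.49) or 1 Hz replicate 3 (−0.49).

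A further 4 S-phase members passed the adjusted p at 1 Hz with a smaller fold change, which made 2 higher and 8 lower of 19 by the adjusted p alone, where 18.1% of all genes tested were higher and 17.3% lower. Pcna (log2 fold change −0.33) and Mcm4 (−0.32) were lower, and Rrm1 (0.46) and E2f1 (0.30), the founding E2F factor, were higher. Rrm1 ranged from 55.7 to 61.9 CPM in control and from 72.5 to 86.6 CPM at 1 Hz, so that it was higher in every 1 Hz library than in any control, as for 7.22% of all genes tested, while its partner Rrm2 had a log2 fold change of 0.11 (SE 0.09, adjusted p = 0.365). The other 9 S-phase members, among them Mcm2, Mcm6 and Mcm7, did not pass the adjusted p.

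The mitotic member that rose at 1 Hz was Ube2c, from a median of 6.14 CPM in control (2.79 to 6.62) to 8.12 CPM (5.67 to 11), a log2 fold change of 0.57 (SE 0.17, adjusted p = 0.012). Of its 1 Hz libraries 4 lay above every control, and the log2 fold change fell under 0.5 without control replicate 5 (0.45) or without 1 Hz replicate 3 (0.45). The member that fell was Kif20a, a kinesin of the central spindle needed for cytokinesis, from a median of 8.13 CPM (6.89 to 12.5) to 5.62 CPM (3.68 to 6.41), with no overlap (log2 fold change −0.72, SE 0.21, adjusted p = 0.00859). Cdk1 passed the adjusted p with a log2 fold change of −0.38 (SE 0.13). Scaling by library totals alone gave 0 mitotic members higher and 5 lower at 1 Hz, and the fit on the 12 libraries of this comparison gave 1 higher and 3 lower.

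At 4 Hz, 5 of the 19 S-phase members fell (26.3%) and 1 rose (5.26%), where 9.61% of all genes tested fell and 10.5% rose. Of the 23 mitotic members 5 rose (21.7%) and 2 fell (8.70%), the second share being near the background. Of the 5, 3 were not called without replicates 3 and 6 of that condition, which were singled out for their high values. The median log2 fold change was −0.39 over the S-phase members, 0.20 over the mitotic members and −0.01 over all genes tested. The comparisons of 1 Hz, 4 Hz and 10 Hz with control share the same 6 control libraries.

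Cdc6 ranged from 0.820 to 1.38 CPM (median 1.13) at 4 Hz, below every control library, as for 7.93% of all genes tested (log2 fold change −1.15, SE 0.29, adjusted p = 0.00292). Mcm5 ranged from 2.19 to 4.99 CPM (median 2.89), also below every control (−1.01, SE 0.28, adjusted p = 0.00631). Mcm4, whose control values ran from 17.9 to 23.4 CPM (median 20.7), ranged from 10.7 to 15.2 CPM (median 12.4) at 4 Hz and did not overlap with control either (−0.68, SE 0.10, adjusted p = 1.94e-05). The helicase is a ring of Mcm2 to Mcm7 in equal parts, and the log2 fold changes of Mcm2, Mcm6 and Mcm7 at 4 Hz were −0.19, −0.09 and 0.05, none of which passed the test.

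Uhrf1 ranged from 1.72 to 3.82 CPM (median 2.53) at 4 Hz with 5 of 6 libraries below every control (−1.12, SE 0.26, adjusted p = 0.00118). Mcm3 ranged from 8.89 to 14.3 CPM (median 9.59), with some overlap (−0.64, SE 0.15, adjusted p = 0.00167). The member that rose was Rrm1, at 79.9 to 92.8 CPM (median 82.2) above every control, as for 8.68% of all genes tested (0.54, SE 0.08, adjusted p = 1.59e-05). Pcna (−0.35), Cdt1 (−0.40), Ccne1 (−0.46) and E2f1 (−0.32) passed the adjusted p with a smaller log2 fold change, which made 1 higher and 9 lower of 19 by the adjusted p alone, where 19.2% of all genes tested were higher and 20.2% lower. With scaling by library totals 0 S-phase members were called higher and 7 lower at 4 Hz. Tk1, which fell at 1 Hz, had a log2 fold change of −0.45 (SE 0.27, adjusted p = 0.176) at 4 Hz, and the difference between 4 Hz and 1 Hz (0.55, SE 0.28, adjusted p = 0.214) did not pass the test.

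**Figure D2:**
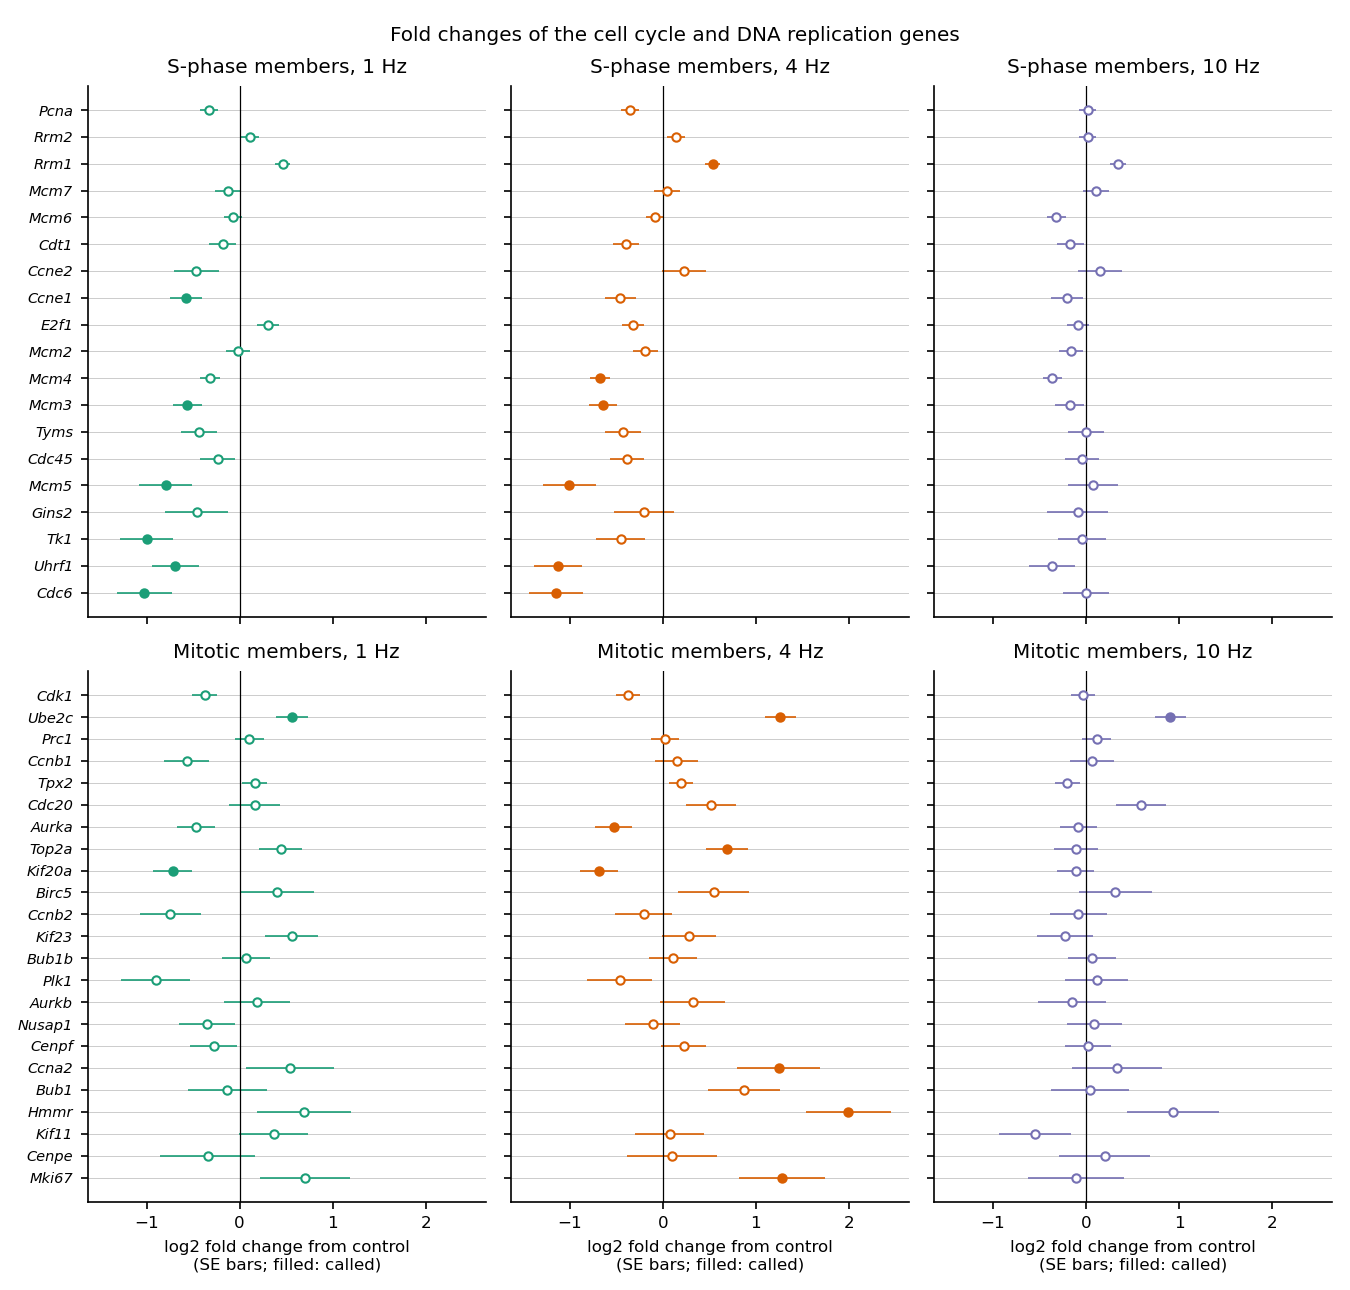
Log2 fold change from control with its standard error for the 19 S-phase members (top) and 23 mitotic members (bottom) at 1 Hz, 4 Hz and 10 Hz, ordered by mean TPM; filled points were called by edgeR. Cdc6, Mcm5, Uhrf1 and Mcm3 are filled and left of 0 at 1 Hz and 4 Hz, and Ube2c is filled and right of 0 at all 3 frequencies.

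Ube2c rose at 4 Hz in every library. It ranged from 11.5 to 15.7 CPM (median 13.4), above every control and every 1 Hz library, with a log2 fold change of 1.26 from control (SE 0.17, adjusted p = 3e-06), a 2.40-fold higher level. Hmmr, a spindle protein that also binds hyaluronan, ranged from 0.290 to 1.46 CPM (median 0.703) in control and from 1.22 to 4.54 CPM (median 2.92) at 4 Hz. Of its 4 Hz libraries 5 of 6 lay above every control, and the log2 fold change was 1.99 (SE 0.46, adjusted p = 0.00123).

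The other 3 that rose were highest in 2 libraries, replicates 3 and 6, and were not called once these were left out. These libraries were singled out for such high values, so the loss of the calls follows from that choice. Mki67 was at 4.45 and 5.23 CPM in replicates 3 and 6 at 4 Hz and between 0.684 and 1.53 CPM in the other 4, against 0.145 to 1.67 CPM in control (log2 fold change 1.28, SE 0.46, adjusted p = 0.028). Top2a, the topoisomerase that untangles replicated chromosomes, was at 15.2 and 16.4 CPM in these 2 libraries and between 5.82 and 9.48 CPM in the other 4, against 4.64 to 8.16 CPM in control (0.69, SE 0.23, adjusted p = 0.0182). Ccna2 (cyclin A2, active in S phase and G2) was at 4.05 and 4.06 CPM in them and between 1.22 and 2.35 CPM in the other 4, against 0.436 to 1.67 CPM in control (1.25, SE 0.45, adjusted p = 0.0294). Leaving out replicate 3 or 6 alone also ended each of these calls, with log2 fold changes of 1.02 and 0.865 for Mki67, 0.52 and 0.558 for Top2a and 1.06 and 1.05 for Ccna2. So did leaving out control replicate 3 for Mki67 (1.03) and Ccna2 (1.07), and control replicate 4 for Mki67 (1.25).

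Replicates 3 and 6 at 4 Hz both exceeded the other 4 libraries of the condition in 13 of the 23 mitotic members and fell below them in none, where 7.41% of all genes tested were above and 4.89% below. Besides Mki67, Top2a, Ccna2 and Hmmr, these were Ccnb1, Aurkb, Bub1b, Plk1, Cenpe, Cenpf, Kif11, Kif23 and Tpx2. Among the 19 S-phase members both libraries were above the others in 1 (Cdc6) and below them in 2 (Pcna and Ccne1). The pair was singled out for these values, so the counts and the fits without the pair are a description with no test. Their totals were 7.91 M and 10.7 M counts, their small RNA shares 51.1 and 26.9 CPM and their summed muscle marker levels 19656 and 24356 TPM, and the part of these in the mitotic values was not tested. With both left out, Mki67 (log2 fold change 0.22), Top2a (0.28) and Ccna2 (0.72) were no longer called against control, the mitotic count was 2 higher and 1 lower with a median log2 fold change of −0.05, and the S-phase count stayed at 1 higher and 5 lower.

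**Figure D3:**
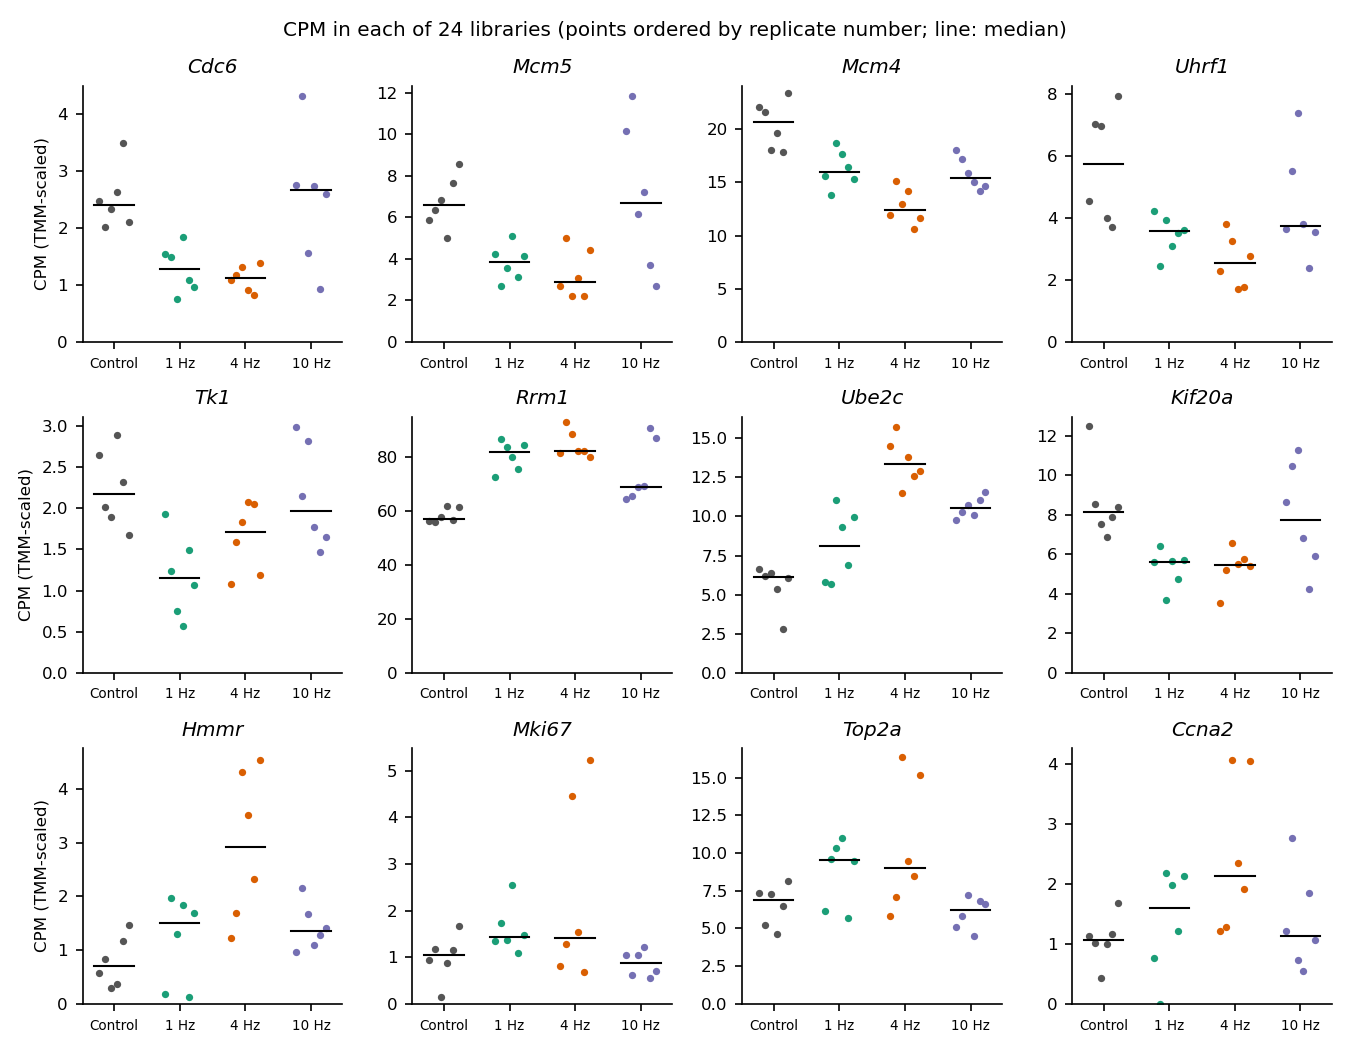
CPM of 12 members in each of the 24 libraries by condition; points are ordered by replicate number and the line is the median of 6. Every Cdc6 point at 1 Hz and 4 Hz lies below the control points, while the 2 highest 4 Hz points of Mki67, Top2a and Ccna2 are replicates 3 and 6.

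The 2 mitotic members that fell at 4 Hz were Kif20a, at 3.52 to 6.55 CPM (median 5.47) below every control (−0.69, SE 0.20, adjusted p = 0.0092), and Aurka, the centrosome kinase of spindle assembly, at 2.80 to 4.88 CPM against 3.97 to 6.37 CPM in control (−0.53, SE 0.20, adjusted p = 0.0378). The fall of Kif20a stayed called with any 1 library left out. The partners of Cdk1 did not pass the test at 4 Hz, with log2 fold changes of 0.15 for Ccnb1 and −0.21 for Ccnb2, while Cdk1 itself passed the adjusted p at −0.38 (SE 0.13). On log2(TPM + 1) with no filter, limma called 2 mitotic members higher (Ube2c and Hmmr) and 3 lower (Kif20a, Aurka and Cdk1) at 4 Hz, in place of 5 and 2. With a mean TPM of at least 1, which left 16 of the 23 to test and dropped Hmmr, Mki67 and Ccna2, it called 1 higher and 3 lower. For S-phase members it called none higher, Rrm1 included, and 8 lower.

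At 10 Hz, edgeR called 0 of 19 S-phase members against control, as did DESeq2 and limma on TPM, and at an unadjusted p under 0.05 edgeR had 1 higher and 2 lower. Of all genes tested 1.24% rose and 0.623% fell. Rrm1 (log2 fold change 0.34) and Mcm4 (−0.36) passed the adjusted p alone, as did 2.67% of all genes tested that were higher and 2.22% that were lower. The median log2 fold change was −0.04 over the S-phase members and 0.04 over the mitotic members. Replicates 1, 2 and 3 of 10 Hz stood apart with high values in many members. With them left out, the S-phase median was −0.26, with 16 of 19 members negative, and the mitotic median was −0.13. These libraries were singled out for values of the same members, so lower medians follow from that choice and no fall is read from them. Still 0 S-phase members were called, with 2 higher and 6 lower at an unadjusted p under 0.05. No share of all genes tested was taken at an unadjusted p, here or further on. Ube2c rose, as the only mitotic member called. It ranged from 9.76 to 11.6 CPM (median 10.5), above every control library as 1.28% of all genes tested were, with a log2 fold change of 0.91 (SE 0.17, adjusted p = 0.00253), and it stayed called with any 1 library left out but not by limma on TPM.

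The 10 Hz libraries differed among themselves. Replicates 1, 2 and 3 all exceeded replicates 4, 5 and 6 in 9 of 19 S-phase and 7 of 23 mitotic members, where 9.09% of all genes tested were above and 9.05% below. Mcm3 was at 16.0 to 18.8 CPM in the first 3 and 10.1 to 14.5 CPM in the last 3, Kif20a at 8.63 to 11.3 and 4.24 to 6.83 CPM, and Aurka at 5.23 to 6.86 and 3.30 to 3.87 CPM. Both ribonucleotide reductase genes went the other way, with Rrm1 at 64.2 to 68.7 and 68.9 to 90.4 CPM and Rrm2 at 126 to 143 and 159 to 197 CPM. The small RNA share was between 111 and 273 CPM in replicates 1, 2 and 3 and between 38.4 and 81.7 CPM in replicates 4, 5 and 6. This split was noticed in the values, which makes it a description, and the part of the small RNA share in it was not tested.

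**Figure D4:**
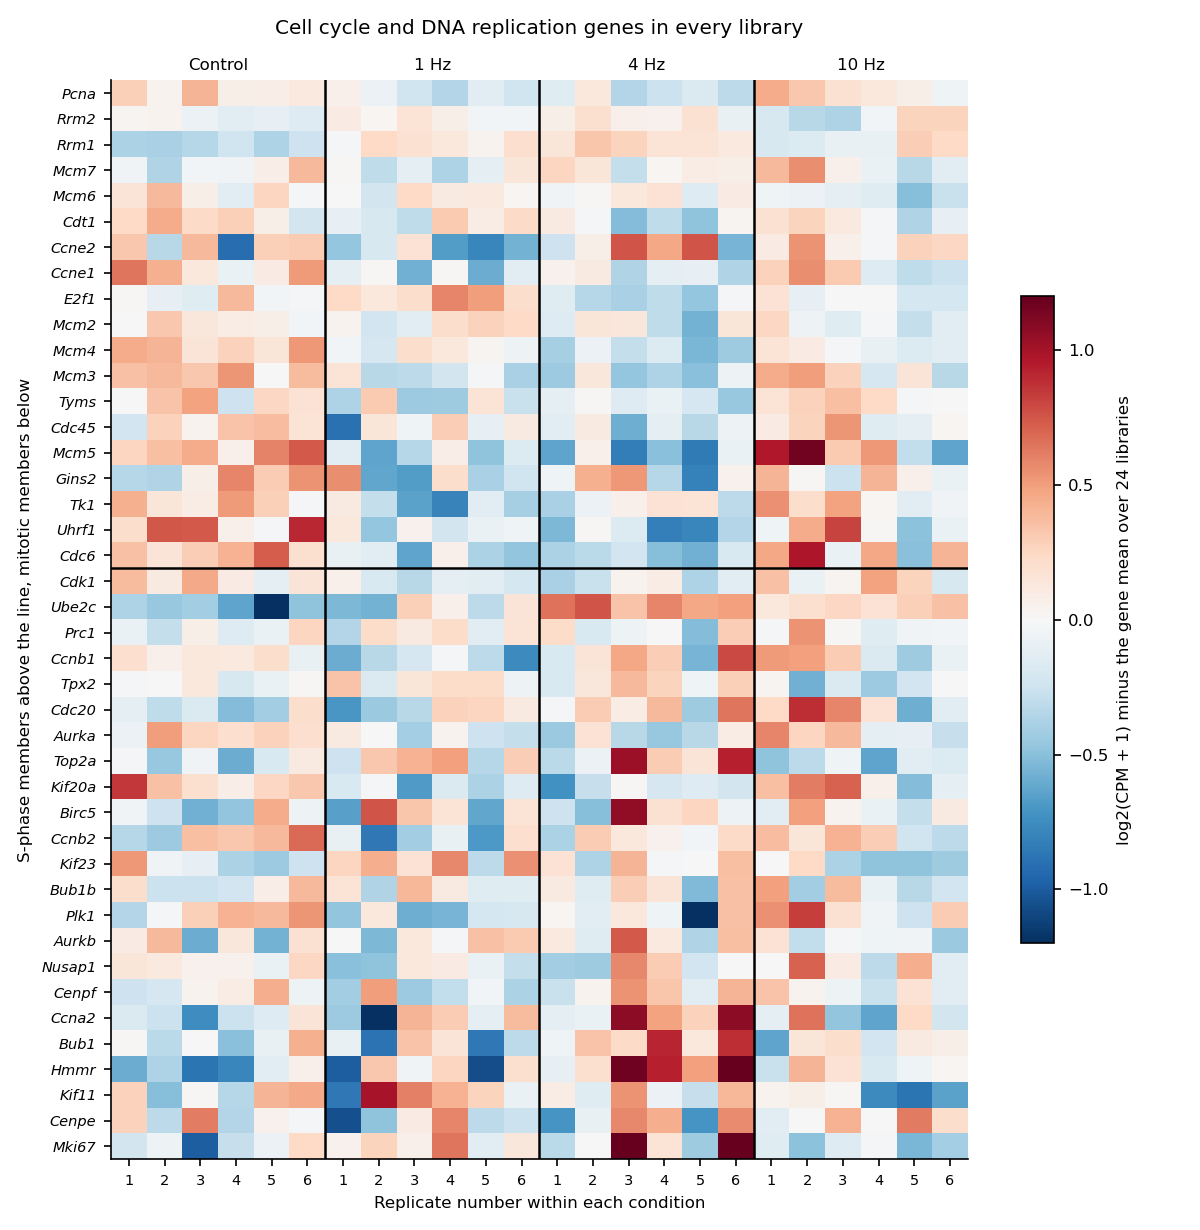
Each member (row) in each library (column), as log2(CPM + 1) minus its mean over the 24 libraries; S-phase members are above the horizontal line and mitotic members below. Columns 3 and 6 at 4 Hz are red for many mitotic members, and columns 1, 2 and 3 at 10 Hz are redder than columns 4, 5 and 6 for members such as Mcm3, Kif20a and Aurka.

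Between frequencies, 4 of 19 S-phase and 4 of 23 mitotic members were called when 10 Hz was compared with 1 Hz. Against 4 Hz these counts were 3 and 3. From 1 Hz to 10 Hz, 4 S-phase members were higher (21.1%) and none lower, where 9.45% of all genes tested were higher and 8.49% lower. These were Cdc6 (log2 fold change 1.02, SE 0.29, adjusted p = 0.00704), Tk1 (0.96, SE 0.28), Mcm5 (0.87, SE 0.28) and Ccne2 (0.62, SE 0.24), which encodes cyclin E2. Of the mitotic members 13% were higher and 4.35% lower, which was near the shares of all genes tested. Among them Plk1, a kinase of spindle assembly and mitotic exit, was 1.02 higher (SE 0.36), Ccnb1 0.63 higher, Kif20a 0.61 higher and Kif23, another central spindle kinesin, 0.79 lower on the log2 scale. Cdc6 and Tk1 stayed called with any 1 library left out, while Mcm5 was not called without 10 Hz replicate 1 (0.713) or 2 (0.666). Kif20a lost its call without 1 Hz replicate 3 or 10 Hz replicate 2 or 3 (0.482 to 0.521), and Plk1 without 1 Hz replicate 3 or 4 or 10 Hz replicate 1 or 2 (0.847 to 0.936). Ccnb1 lost its call without any of 7 libraries (1 Hz replicates 1, 2, 5 and 6 and 10 Hz replicates 1 to 3), and Kif23 without any of 6 (1 Hz replicates 4 and 6 and 10 Hz replicates 3 to 6). With 10 Hz replicates 1 to 3 left out, which were singled out for high values, 0 members were higher and 2 lower between these frequencies.

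From 4 Hz to 10 Hz, Cdc6 (1.15, SE 0.28, adjusted p = 0.00517), Mcm5 (1.08, SE 0.28, adjusted p = 0.0066) and Uhrf1 (0.76, SE 0.26) were higher and no S-phase member was lower, where 5.32% of all genes tested were higher and 5.64% lower. The S-phase members that were higher made up 15.8% of their set. Of the mitotic members 4.35% were higher and 8.70% lower, which was near the shares of all genes tested. Kif20a was higher (0.58, SE 0.20), and Mki67 (−1.39, SE 0.44) and Top2a (−0.80, SE 0.22) were lower. Uhrf1 lost its call without 4 Hz replicate 1, 4, 5 or 6 or 10 Hz replicate 2 or 3 (0.536 to 0.769), Kif20a without 4 Hz replicate 1, 2, 4 or 6 or 10 Hz replicate 1, 2 or 3 (0.446 to 0.581) and Mki67 without 4 Hz replicate 3 (−1.13) or 6 (−0.966). None of these 6 was called with 10 Hz replicates 1 to 3 left out, and neither Mki67 nor Top2a was with 4 Hz replicates 3 and 6 left out. The libraries left out were singled out for their values, so this is a description with no test.

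From 1 Hz to 4 Hz, 3 mitotic members were higher and 1 S-phase member was lower, where 1.59% of all genes tested were higher and 1.4% lower. Ube2c was higher in every 4 Hz library than in any 1 Hz library, as for 2.37% of all genes tested (0.69, SE 0.16, adjusted p = 0.00469). Hmmr (1.30, SE 0.41) and Ccnb1 (0.72, SE 0.24) were also higher, with overlap. Hmmr lost its call without 1 Hz replicate 1, 3 or 5 or 4 Hz replicate 3, 4 or 6 (1.07 to 1.33), and Ccnb1 without any of 9 libraries, all but 1 Hz replicate 4 and 4 Hz replicates 1 and 5 (0.549 to 0.775). E2f1 was lower in every 4 Hz library, as for 3.33% of all genes tested, at 11.1 to 15.5 CPM (median 12.4) against 17.3 to 24 CPM (median 18.5) at 1 Hz (−0.63, SE 0.11, adjusted p = 0.00085), and kept its call with any 1 library left out.

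The summed TPM of the S-phase members was 424 to 488 in control (median 451), 372 to 442 at 1 Hz (median 402), 327 to 438 at 4 Hz (median 357) and 386 to 454 at 10 Hz (median 429). That of the mitotic members ranged from 69.5 to 91.4, 68.4 to 79.0, 52.4 to 84.8 and 66.8 to 83.1. The summed level of the 12 muscle markers was higher at 1 Hz (16915 to 21581 TPM) and 4 Hz (17128 to 24356 TPM) than in any control library. Of the 12, 8 rose at 1 Hz (66.7%) and 9 at 4 Hz (75%), against 9.34% and 10.5% of all genes tested. At 10 Hz the summed level overlapped with control (11424 to 18294 TPM), and 3 of 12 rose (25%), against 1.24% of all genes tested. Of these 3, Myog and Mylpf were not called without 10 Hz replicate 6 (0.49 each).

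**Figure D5:**
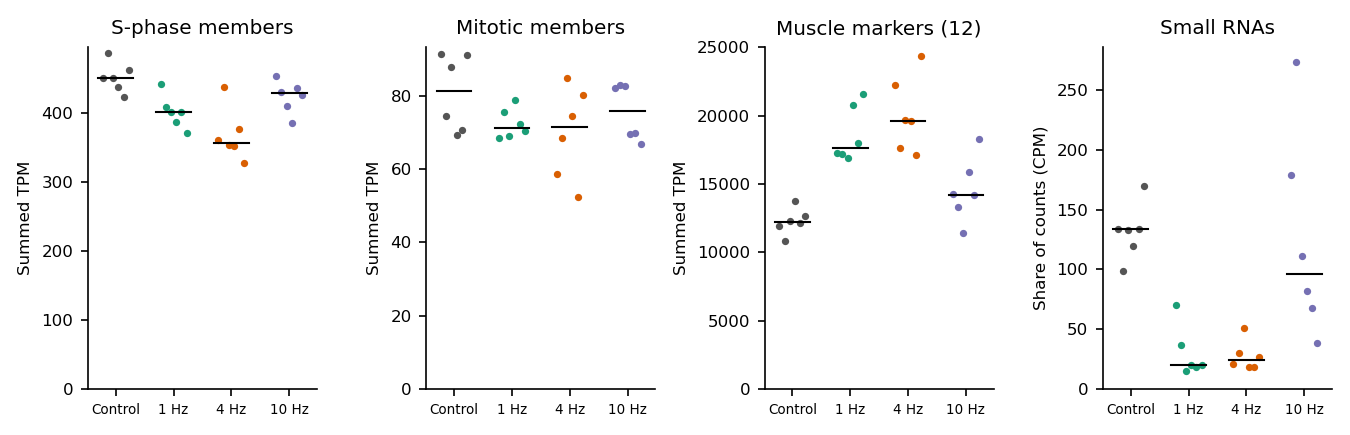
Summed TPM of the S-phase members, of the mitotic members and of the 12 muscle markers, and the share of small RNAs without a poly(A) tail in CPM, for each of 24 libraries; the line is the median of 6 and points are ordered by replicate number. Muscle marker sums at 1 Hz and 4 Hz lie above all control points, and small RNA shares there lie below all control points.

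The small RNA share was lower at 1 Hz and 4 Hz, where S-phase members fell and the summed level of the muscle markers was higher. As a covariate in the edgeR fit it left 0 S-phase members called at 1 Hz and 4 Hz, in place of 6 each, and 0 mitotic members, in place of 2 and 7, and it changed the sign of Mcm5 at both frequencies. The median log2 fold change of the S-phase members became −0.06 at 1 Hz and −0.05 at 4 Hz. That of the mitotic members became 0.20 and 0.62, at 4 Hz with 20 of 23 positive and 7 higher at an unadjusted p under 0.05. The share of all genes tested at that threshold was not taken, so the 7 cannot be set against a background. Ube2c remained called at 10 Hz. As the share does not overlap between control and 1 Hz or 4 Hz, it and the stimulation cannot be told apart in those comparisons.

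Markers of undifferentiated myoblasts, the cells of these cultures able to divide, did not move together. Of 9 such genes Pax7, which marks satellite cells, rose at 1 Hz (log2 fold change 0.99, SE 0.36) and 4 Hz (1.04, SE 0.36), while Hes1, a Notch target, fell at 1 Hz (−0.54, SE 0.13) and Myf5, an early myogenic factor, fell at 4 Hz (−0.61, SE 0.18). The call of Pax7 was lost without control replicate 1, 2, 3 or 5 or 1 Hz replicate 4 or 6 at 1 Hz (lowest 0.794), and without control replicate 1 or 3 or 4 Hz replicate 6 at 4 Hz (lowest 0.843). Hes1 lost its call without control replicate 2 or 6 (to −0.49) and Myf5 without control replicate 6 (−0.48). At both 1 Hz and 4 Hz 11.1% of the 9 rose and 11.1% fell, near the shares of all genes tested. Those shares were 9.34% and 8.99% at 1 Hz, and 10.5% and 9.61% at 4 Hz. At 10 Hz edgeR called 0 of 9, with 2 higher at an unadjusted p under 0.05. Their summed level was 330 to 425 TPM in control, 370 to 410 at 1 Hz, 370 to 400 at 4 Hz and 382 to 439 at 10 Hz. The part of these cells in the members' values was not tested.

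Other genes of DNA replication, from a list of 29 of which 28 were tested, were called at about the rate of all genes in the lower direction, at 10.7% at both 1 Hz and 4 Hz against 8.99% and 9.61%. At 1 Hz none rose and 3 fell, Mcm10 (−0.93, SE 0.28), a factor that activates the helicase, Gmnn (−0.85, SE 0.14), the inhibitor of Cdt1, and Orc1 (−0.82, SE 0.25), the largest subunit of the origin recognition complex. At 4 Hz, Gmnn (−0.51), Orc1 (−0.63) and Fen1, the nuclease that trims Okazaki fragments (−0.53, SE 0.13), fell, and Prim2, a primase subunit (0.83, SE 0.25), and Orc6 rose. The 4 Hz calls were lost without any of 8 libraries for Orc1 (control replicates 1, 2, 5 and 6 and 4 Hz replicates 1, 4, 5 and 6, to −0.42), any of 6 for Gmnn (control and 4 Hz replicates 1, 2 and 6, to −0.45) and any of 3 for Fen1 (4 Hz replicates 3, 4 and 5, to −0.46), and that of Orc1 at 1 Hz without control replicate 1 (−0.62). At 10 Hz edgeR called 0 of 28, with 4 higher and 1 lower at an unadjusted p under 0.05. Their median log2 fold change was −0.10 at 1 Hz, 0.01 at 4 Hz and 0.04 at 10 Hz.

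Of 41 other mitotic genes 30 were tested, and the same 3 fell at 1 Hz and 4 Hz, or 10% against 8.99% and 9.61% of all genes tested, so that the share was near the background. Cdca8, borealin of the chromosomal passenger complex, ranged from 6.71 to 8.70 CPM in control. It ranged from 2.71 to 4.35 CPM at 1 Hz, 2.26 to 3.79 CPM at 4 Hz and 2.95 to 6.05 CPM at 10 Hz, always below every control library. Of all genes tested, 5.86% lay below every control library at 1 Hz and 7.93% at 4 Hz, with no such share given for 10 Hz. The log2 fold changes of Cdca8 were −1.15 (SE 0.19), −1.28 (SE 0.19) and −0.66 (SE 0.18, adjusted p = 0.0316), and it was the 1 gene of this list called at 10 Hz. That call was lost without control replicate 1, 2, 4 or 5 or 10 Hz replicate 4, 5 or 6 (to −0.55). Aspm, a protein of the spindle poles, had log2 fold changes of −1.58 (SE 0.32) at 1 Hz and −0.99 (SE 0.30) at 4 Hz, and Espl1, the protease separase, of −1.27 (SE 0.34) and −1.38 (SE 0.33). Cenpa, the centromeric histone variant, rose at 1 Hz, and Cenpa, Spc25 and Mad2l1 rose at 4 Hz.

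Histone genes whose expression is tied to DNA replication mostly have RNA without a poly(A) tail, and 17 of 66 were tested. At 1 Hz 5 fell (29.4%) and 1 rose (5.88%), where 8.99% of all genes tested fell and 9.34% rose. At 4 Hz 3 fell (17.6%) and 1 rose (5.88%), where 9.61% of all genes tested fell and 10.5% rose. At 10 Hz edgeR called 0, with 1 higher and 1 lower at an unadjusted p under 0.05. The linker histone gene H1f3 had log2 fold changes of −1.98 (SE 0.33) at 1 Hz and −1.39 (SE 0.31) at 4 Hz, and H2bc6 of −1.60 (SE 0.28) and −1.72 (SE 0.28). The share of small RNAs, which also lack a poly(A) tail, was lower in the same conditions, and its part in the histone values was not tested.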

How the data were processed

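RNA was extracted from 24 tissues, libraries were made with poly(A) selection (samples of low input by ribodepletion, not named) and read as paired ends on a Singular G4 instrument. The authors ran nf-core/rnaseq, with salmon for quantification, against GRCm39 and its Ensembl annotation, whose release is not given in the sources used here, nor is the strand setting. The deposited values are salmon estimated counts per gene, not normalized (of which 6.62% to 10.6% per library had a fractional part); a table of TPM from the authors' pipeline gives the same genes. Groups and replicate numbers came from sample titles.

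Counts were rounded and tested with edgeR 4.0.16 in R 4.3.3 (quasi-likelihood test, TMM scaling, filterByExpr, which kept 13318 of 56941 genes, 4 conditions in 1 fit) with Benjamini-Hochberg adjustment over all genes tested. CPM values use TMM-scaled library sizes. Alternatives used DESeq2 1.42.0, limma 3.58.1 on TPM, other scalings and filters, thinned counts, a replicate block, a covariate and single libraries left out; the tests were checked on simulated data. Within-condition library pairs (60) differed beyond sampling noise. Named genes are the members of highest TPM, up to 5 called members of each set with the largest fold change per comparison with control, up to 3 per comparison between frequencies, and up to 3 per other list; other members were added, after their values were seen, to complete counts. One gene of the list of other replication genes is not reported here. The members and lists were chosen with earlier results of these data known.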

Additional observations from a re-analysis of the deposited data

Results flagged for a closer look

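Among 116 groups of 6 values (named members and both summed levels, by condition), 5 had a library whose gap to its nearest neighbour, as a share of the range, exceeded Dixon's critical value at the 95% level, where chance alone flags about 1 group in 20. Ube2c in control replicate 5 was lowest at 2.79 CPM, with the next library at 5.39 CPM, and the call of Ube2c at 1 Hz was lost without that library. Kif20a in control replicate 1 was highest at 12.5 CPM (next 8.55 CPM), and its falls at 1 Hz and 4 Hz stayed called without it. Kif23 in the same library was highest at 3.22 CPM (next 1.84 CPM). E2f1 in control replicate 4 was highest at 20.9 CPM (next 15.9 CPM). Prc1 in 10 Hz replicate 2 was highest at 16.3 CPM (next 11 CPM).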

How the results depend on the processing

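Counts of called members kept within 1.5 times under DESeq2 and its size factors. Scaling by library totals shifted the all-gene median at 4 Hz to −0.11 (log2) and the mitotic calls at 1 Hz from 2 to 5. Without a filter, 10 Hz against 1 Hz gave 5 in place of 8. A minimum of 5 CPM, which tests fewer members, gave 3 S-phase members at 1 Hz, 3 mitotic members at 4 Hz, and 3 between 10 Hz and each of 1 and 4 Hz. Limma on log2(TPM + 1) or log2(TPM + 0.1) with a mean TPM of at least 1 gave 3 S-phase and 1 mitotic at 1 Hz, 4 mitotic at 4 Hz, 0 mitotic at 10 Hz and 2 in each comparison between frequencies; with no filter it gave 3 S-phase and 1 mitotic at 1 Hz, 0 mitotic at 10 Hz, 0 between 10 and 1 Hz and 1 between 10 and 4 Hz. The small RNA covariate gave 0 in every comparison with 1 Hz or 4 Hz except 4 Hz against 1 Hz, which kept a count of 4; it turned Mcm5 at 1 Hz (0.29), 4 Hz (0.038) and 10 Hz against 1 Hz (−0.17), Kif20a at 10 Hz against 4 Hz (−0.0139), and Aspm at 4 Hz (0.28) and 10 Hz against 4 Hz (−0.36). Adjusted p alone gave 10 S-phase members at 1 Hz, 10 at 4 Hz and 2 at 10 Hz, and 10 between 10 and 4 Hz. Fitting only the 12 libraries compared gave 4 mitotic at 1 Hz and 2 between 4 and 1 Hz. Thinned counts gave 4 mitotic at 4 Hz, 1 between 4 and 1 Hz and 5 between 10 and 1 Hz. Chosen after seeing the data, leaving out 4 Hz replicates 3 and 6 gave 3 mitotic at 4 Hz and 2 between 10 and 4 Hz, and leaving out 10 Hz replicates 1 to 3 gave 2 between 10 and 1 Hz and 0 between 10 and 4 Hz. The cause of these changes was not tested. Leaving out single libraries gave 4 to 8 S-phase calls at 1 Hz (fewest without control replicate 6), 6 to 8 at 4 Hz and 0 to 0 at 10 Hz; mitotic calls were 1 to 4 at 1 Hz (1 without control replicate 5, 4 without control replicate 1), 3 to 7 at 4 Hz (3 without 4 Hz replicate 3) and 1 to 1 at 10 Hz; between frequencies they were 2 to 5 for 4 Hz against 1 Hz (fewest without 1 Hz replicate 1), 4 to 8 for 10 Hz against 1 Hz (fewest without 10 Hz replicate 2) and 4 to 8 for 10 Hz against 4 Hz (fewest without 4 Hz replicate 4). Whether replicate numbers pair the samples was not settled. Correlations of same-numbered deviations ran from −0.18 to 0.36, and 10 of 24 samples correlated best with their own number. The median over same-numbered pairs was highest for 10 Hz against 1 Hz (0.096, other pairs −0.025). It was lowest for 4 Hz against control (−0.07, other pairs 0.016). A replicate block gave 6, 6 and 0 S-phase and 2, 7 and 1 mitotic calls at 1, 4 and 10 Hz, and 4, 8 and 5 between frequencies. Over the alternatives the S-phase median against control ran from −0.40 to −0.06 at 1 Hz, −0.54 to −0.05 at 4 Hz and −0.26 to −0.02 at 10 Hz. The all-gene median moved as well, to −0.18 at 4 Hz in limma on log2(TPM + 0.1), where the S-phase median was −0.54. The mitotic median lay between −0.22 and 0.20 at 1 Hz and between −0.22 and 0.62 at 4 Hz.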

Other observations

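Regulators of the entry into S phase, a list of 15 genes of which 14 were tested, held genes that differed by frequency. At 1 Hz 14.3% of those tested rose and 14.3% fell, against 9.34% and 8.99% of all genes tested. Myc, the growth factor-induced transcription factor, ranged from 40.4 to 60.1 CPM (median 55.2) in control and from 68.0 to 104 CPM (median 87.4) at 1 Hz. It lay above every control there, as for 7.22% of all genes tested, and rose (log2 fold change 0.72, SE 0.12, adjusted p = 5.12e-05). At 4 Hz it ranged from 35.1 to 51.2 CPM (median 37.1), and the difference from 1 Hz was −1.15 (SE 0.12, adjusted p = 5.51e-07). Skp2, the ubiquitin ligase subunit that targets the inhibitor p27, was at 7.13 to 8.17 CPM at 1 Hz, below every control (10.0 to 18.1 CPM). Of all genes tested 5.86% lay below every control at 1 Hz. Skp2 fell by 0.99 on the log2 scale (SE 0.16). Cdc7, the kinase that fires replication origins, fell at 1 Hz (−0.66, SE 0.25) and 4 Hz (−0.80, SE 0.25), and the 1 Hz call was lost without control replicate 1, 3 or 6 or any 1 Hz replicate other than 5 (to −0.51). Ccnd3 rose at 1 Hz. At 10 Hz edgeR called 0 of 14, with 1 higher at an unadjusted p under 0.05.

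Of 21 inhibitors of the cell cycle and DREAM components 19 were tested. At 1 Hz 10.5% of those tested rose and 0 fell, against 9.34% and 8.99% of all genes tested, so that the higher share was near the background. At 4 Hz 21.1% rose and 5.26% fell, against 10.5% and 9.61%. At 10 Hz 5.26% rose and 5.26% fell, 1 gene each way, against 1.24% and 0.623%. Gas1, a membrane protein induced on growth arrest, was at 9.15 to 18.4 CPM in control and rose at 1 Hz (0.92, SE 0.17), 4 Hz (1.00, SE 0.17) and 10 Hz (0.67, SE 0.17), the last not called without 10 Hz replicate 6. E2f4, the repressive E2F of DREAM, rose at 1 Hz (0.51, SE 0.12) and 4 Hz (0.59, SE 0.12), and the 1 Hz call was lost without control replicate 1, 2, 3 or 5 or 1 Hz replicate 4, 5 or 6 (to 0.45). Cdkn1c, the inhibitor p57, rose at 4 Hz from 1.67 to 6.26 CPM in control to 8.12 to 12.1 CPM (1.06, SE 0.23, adjusted p = 0.000727), as did Cdkn2c. Btg1, an antiproliferative factor, fell at 4 Hz (−0.58, SE 0.11) and 10 Hz (−0.50, SE 0.11), and the 10 Hz call was lost without control replicate 1, 3, 5 or 6 or 10 Hz replicate 1, 4 or 6 (to −0.45).

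For some members TPM and counts differed. Cenpf, a kinetochore protein, had a mean of 1.83 TPM at 1 Hz against 0.391 in control, while its CPM medians were 1.89 and 2.64. At 1 Hz its TPM was between 0.216 and 4.14 in single libraries. TPM depends on the isoform lengths that salmon assigns to each library.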
